A study of Ovis aries with 12 samples.

Results

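The corticotropin-releasing hormone system was followed through 4 genes of the deposited gene table, CRH (NCBI GeneID 101121525), its receptors CRHR1 (443025) and CRHR2 (101102228), and its binding protein CRHBP (443354). They were taken from the table by symbol, as the peptide, its receptors and its binding protein, and all 4 were found among the 33609 genes of the table. Each passed the filter on low counts, as did 17806 genes in all. The study sampled both poles of the hippocampus, dorsal and ventral, in 12 adult sheep, all ewes of the Ile-de-France breed. Of these 6 were controls and 6 had undergone chronic stress, whose form the labels do not give. The libraries of polyadenylated RNA were each made from a pool of 2 ewes of one condition. This gave 4 groups of 3 libraries: dorsal control, dorsal stress, ventral control and ventral stress. Both regions came from the same ewes, and the prefix DG of the dorsal libraries stands for dorsal in the series record.

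CRH is the peptide with which the hypothalamus starts the hormonal stress response, and it also acts inside the forebrain as a local transmitter peptide. In the rodent hippocampus it is made mainly by inhibitory interneurons and acts on excitatory neurons through CRHR1, a receptor coupled to the formation of cyclic AMP. CRHR2 prefers the related urocortins, and CRHBP is a secreted protein that binds CRH and urocortin and limits how much of them reaches a receptor.

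Library totals ranged from 12254743 to 53775720 counts, and the 3 dorsal control libraries were all deeper than the 3 dorsal stress ones. Levels are given in CPM, counts scaled to a common library size with TMM factors, and 1 CPM was 12.2 counts in the shallowest library and 50.8 in the deepest. Gene lengths were not used, so levels are compared between libraries for one gene and not between genes. The main axis of spread within groups, the first principal component of the deviations from the group means, held 62.1% of that spread, with dorsal control 1, dorsal stress 1 and ventral control 1 at its lower end (-74.7, -81.5 and -110) and ventral control 3 at its upper end (121). Comparisons were made with edgeR's quasi-likelihood test on all 12 libraries, with p-values adjusted over all tested genes by the Benjamini-Hochberg method. Changes are log2 fold changes with their standard errors (SE), as dorsal minus ventral or stress minus control, and the threshold for a call was an adjusted p below 0.05.

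The peptide and its binding protein, and 1 of the 2 receptors, had lower levels in dorsal than in ventral hippocampus over both conditions. CRH was 8.47-fold lower in dorsal tissue, CRHBP 3.93-fold and CRHR2 3.49-fold. The other receptor, CRHR1, was 1.72-fold lower, which did not pass the test. In this comparison 4.51% of the 17806 tested genes were called, 3.07% as lower in dorsal tissue, against 3 of these 4 genes. The 4 genes were chosen with earlier results of these data known, so these shares are a description and not a test. Fewer cells that make a transcript and less of it per cell cannot be told apart in such tissue libraries.

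CRH itself was at a low level in every dorsal library. In dorsal control libraries 1 to 3 it stood at 0.748, 0.652 and 0.703 CPM, from 38, 29 and 18 counts. In dorsal stress libraries 1 to 3 it stood at 1.24, 1.06 and 0.817 CPM, from 25, 21 and 10 counts. The ventral control libraries held 7.79, 9.18 and 3.33 CPM and the ventral stress libraries 5.84, 13.0 and 4.89 CPM. Every dorsal library thus lay below every ventral one, as for 2.93% of all tested genes. The coefficient of variation was 45.1% and 55.9% in the ventral groups against 6.86% and 20.6% in the dorsal groups. Exact Poisson 95% intervals of dorsal control libraries 1 to 3 were 0.530 to 1.03, 0.437 to 0.937 and 0.417 to 1.11 CPM. Each was wider than the range of the dorsal control values themselves. At these counts the low dorsal control coefficient therefore cannot show how much CRH varied between pools.

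The log2 fold change of CRH was -3.08 ± 0.34 (edgeR adjusted p = 0.00102), with a 95% confidence interval from -3.84 to -2.32. It had the 49th smallest p-value of all tested genes. Taken within condition, CRH was lower in dorsal tissue of control ewes (-3.26 ± 0.49, edgeR adjusted p = 0.0153) and of stressed ewes (-2.91 ± 0.49, edgeR adjusted p = 0.0350). These contrasts called 0.753% and 0.359% of all genes as lower. CRH was the only one of the 4 genes called within a condition, yet the call in stressed ewes was lost without any one of 10 of the 12 libraries (edgeR adjusted p from 0.0510 to 0.202, all but ventral control 1 and 3). The call in control ewes was lost without dorsal control 1, 2 or 3 or ventral control 2 (edgeR adjusted p from 0.0647 to 0.110).

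**Figure D1:**
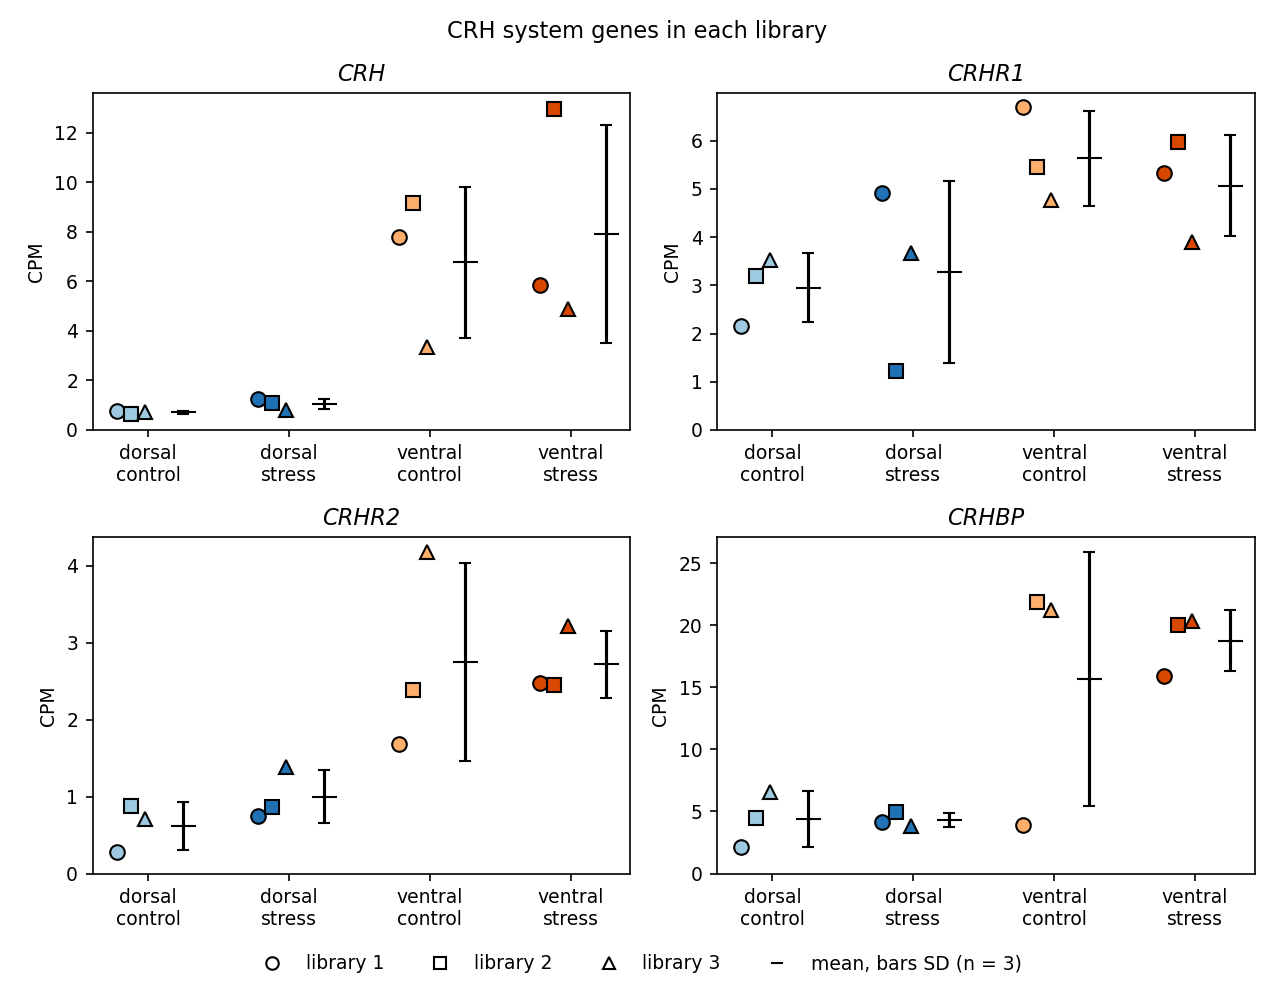
Level of CRH, CRHR1, CRHR2 and CRHBP in CPM (vertical axis, linear, from 0) in each of the 12 libraries, by group; circles, squares and triangles are libraries 1, 2 and 3, and the bars give the mean and SD of 3 libraries. CRH and CRHR2 show no overlap between dorsal and ventral libraries, ventral control 1 lies with the dorsal libraries for CRHBP at 3.87 CPM, and the CRHR1 values of the regions overlap.

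CRHBP, the binding protein, followed the peptide in direction with one exception among the libraries. The ventral control libraries 1 to 3 held 3.87, 21.9 and 21.3 CPM and the ventral stress libraries 15.9, 20.0 and 20.3 CPM. The dorsal libraries held 2.15, 4.47 and 6.6 CPM in control and 4.13, 4.97 and 3.84 CPM in stress. Ventral control 1 therefore fell inside the dorsal range, while the other 5 ventral libraries lay above all dorsal ones. Among stressed ewes the regions did not overlap for CRHBP, CRH and CRHR2, as for 7.67% of all genes.

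The log2 fold change of CRHBP was -1.97 ± 0.41 (edgeR adjusted p = 0.0226). Without ventral control 1 it was -2.21 ± 0.26, with the lowest adjusted p of any library left out (edgeR, 0.00160). The call was lost without any one of 8 libraries, which were all but dorsal control 3, ventral control 1 and 3 and ventral stress 1 (edgeR adjusted p of at most 0.0656). Within condition the differences were -1.83 ± 0.58 in control and -2.12 ± 0.59 in stressed ewes (edgeR adjusted p = 0.245 and 0.185). Without ventral control 1 both passed (-2.29 ± 0.39 and -2.12 ± 0.36, edgeR adjusted p = 0.0202 and 0.0359).

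The receptors had unequal patterns. CRHR2, the receptor that prefers urocortins, stood at 0.276, 0.877 and 0.703 CPM in dorsal control and 0.746, 0.862 and 1.39 CPM in dorsal stress libraries. It stood at 1.68, 2.38 and 4.17 CPM in ventral control and 2.48, 2.45 and 3.22 CPM in ventral stress libraries. All dorsal libraries lay below all ventral ones, though the counts behind the dorsal values were between 14 and 39.

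Over both conditions CRHR2 was lower in dorsal tissue (-1.80 ± 0.35, edgeR adjusted p = 0.0166). That call was lost without dorsal stress 2 (edgeR adjusted p = 0.0595). Within condition CRHR2 gave -2.15 ± 0.50 in control and -1.46 ± 0.50 in stressed ewes, with edgeR adjusted p of 0.0860 and 0.346. The former passed in DESeq2 (adjusted p = 0.00127) and without ventral control 1 (edgeR adjusted p = 0.0482).

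CRHR1, the main receptor for CRH itself, was measured at 2.15, 3.19 and 3.52 CPM in dorsal control and at 4.93, 1.22 and 3.68 CPM in dorsal stress libraries. Ventral control libraries held 6.71, 5.46 and 4.76 CPM and ventral stress libraries 5.34, 5.97 and 3.91 CPM. The control groups did not overlap, which held in this direction for 6.22% of all genes, but dorsal stress 1 lay inside the ventral range. The log2 fold change was -0.78 ± 0.31 over both conditions, with an edgeR adjusted p of 0.270 and a 95% confidence interval from -1.48 to -0.0922. It was -0.94 ± 0.44 in control and -0.63 ± 0.44 in stressed ewes (edgeR adjusted p = 0.617 and 1.00).

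The order of the 4 groups can be read from their means. For CRH it ran from dorsal control (0.701 ± 0.0481 CPM, SD, n = 3) through dorsal stress (1.04 ± 0.214) and ventral control (6.77 ± 3.05) to ventral stress (7.90 ± 4.41). For CRHR2 it ran from dorsal control (0.619 ± 0.309) through dorsal stress (0.999 ± 0.343) and ventral stress (2.72 ± 0.437) to ventral control (2.75 ± 1.28). For CRHBP dorsal stress (4.31 ± 0.585) and dorsal control (4.41 ± 2.23) came before ventral control (15.7 ± 10.2) and ventral stress (18.7 ± 2.47). For CRHR1 dorsal control (2.95 ± 0.716) and dorsal stress (3.27 ± 1.89) came before ventral stress (5.07 ± 1.06) and ventral control (5.64 ± 0.986). In each of the 4 orders both dorsal groups came first, and neighbours from the same region were not called as different. The step from the higher dorsal to the lower ventral mean was larger than the SD of either group for CRH, CRHR2 and CRHBP, and smaller than the dorsal stress SD for CRHR1.

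**Figure D2:**
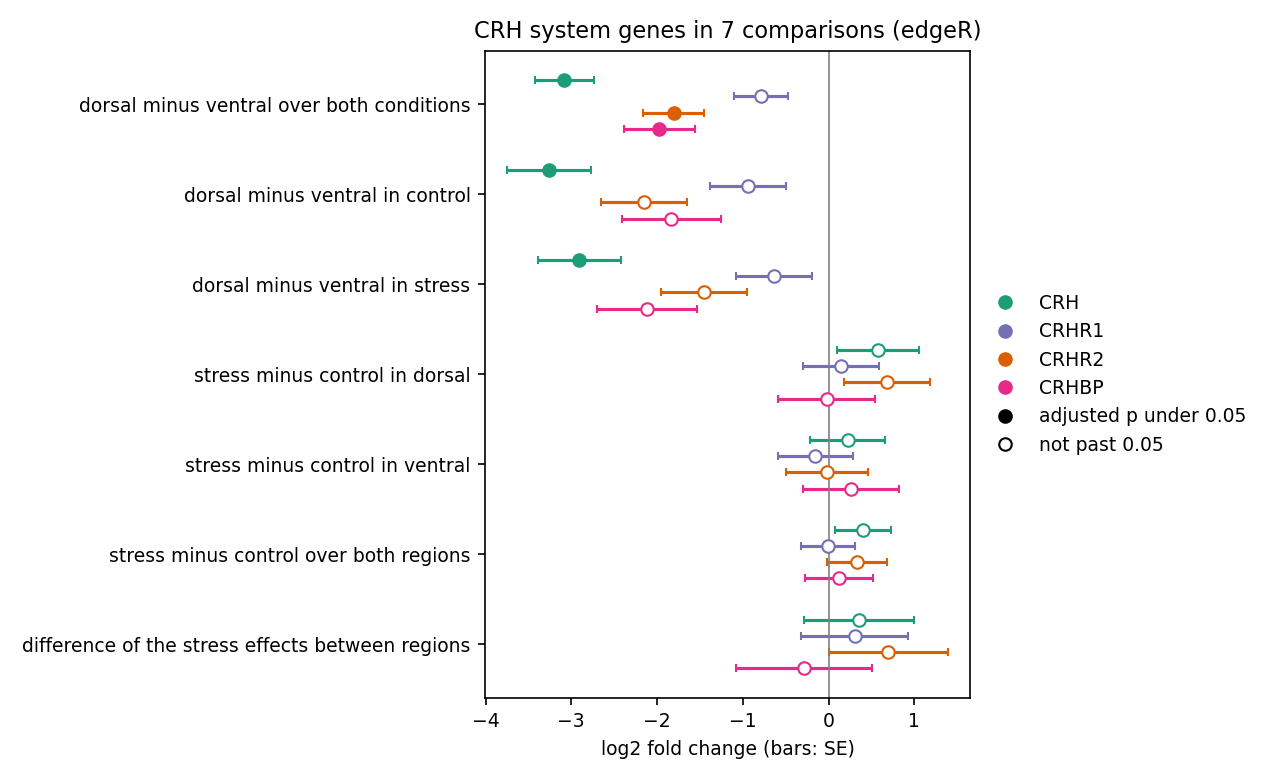
Log2 fold change with SE (horizontal axis) of CRH, CRHR1, CRHR2 and CRHBP in the 7 comparisons of the edgeR fit, filled where the adjusted p is under 0.05. All 4 genes lie below 0 between regions, from -3.08 for CRH to -0.78 for CRHR1 over both conditions, and no stress comparison reaches the threshold.

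Chronic stress was not followed by a detectable change of any of the 4 genes. No gene at all passed for stress in edgeR (0% of 17806 genes in either region, over both, or for the difference between regions). At an unadjusted p under 0.05 there were 152 genes in dorsal tissue, 142 in ventral tissue, 308 over both and 46 for the difference. These are 0.854%, 0.797%, 1.73% and 0.258% of the tested genes. Each share is below the 0.05 that evenly spread p-values would give with no effect at all. DESeq2 called 1, 1, 14 and 0 genes in these comparisons, none of them among the 4. Every adjusted p for the 4 genes was 1.00 in edgeR, so the intervals are what limits a statement.

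The dorsal libraries of stressed ewes all held more CRH than those of control ewes, by a log2 change of 0.58 ± 0.47 (95% confidence interval from -0.47 to 1.63), and such a lack of overlap in this direction was seen in 2.38% of all genes. The nearest libraries were dorsal stress 3 and dorsal control 1, whose exact Poisson 95% intervals, 0.392 to 1.5 CPM and 0.530 to 1.03 CPM, overlapped. In ventral tissue the stress effect on CRH was 0.22 ± 0.44 (95% confidence interval from -0.75 to 1.20). Over both regions it was 0.40 ± 0.32, with an interval from -0.31 to 1.12, so that neither a small decrease nor an increase is outside it. Without ventral stress 2 the effect over both regions was 0.12. Both regions came from the same ewes, but the fit took their libraries as independent. The SE and interval of any stress effect over both regions may therefore be too narrow.

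For the receptors the stress effects lay on both sides of 0. CRHR1 differed by 0.15 ± 0.44 in dorsal and -0.16 ± 0.44 in ventral tissue, with intervals from -0.83 to 1.13 and from -1.12 to 0.81. Its 3 dorsal stress libraries included both the lowest and the highest dorsal value, 1.22 and 4.93 CPM. CRHR2 gave 0.68 ± 0.51 in dorsal (95% confidence interval from -0.44 to 1.80) and -0.02 ± 0.48 in ventral tissue (from -1.07 to 1.04).

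CRHBP differed between stressed and control ewes by -0.02 ± 0.57 in dorsal and 0.26 ± 0.56 in ventral tissue, with intervals from -1.28 to 1.23 and from -0.97 to 1.49. Without ventral control 1 the ventral value turned to -0.20 ± 0.38. Pituitary markers had lower values in stressed ewes for 7 of 7 tested genes over both regions (median -2.50, 4 at an unadjusted p under 0.05 and 0 called in edgeR). Their summed level was 113 to 153 CPM in dorsal control and 5.62 to 12.7 CPM in dorsal stress libraries, with no overlap. In ventral libraries it was 7.89 to 101 CPM in control and 4.95 to 27.0 CPM in stress. The part of pituitary markers in the values of the 4 genes was not tested. The difference of the stress effects, dorsal minus ventral, was 0.35 ± 0.64 for CRH, 0.30 ± 0.62 for CRHR1, 0.70 ± 0.69 for CRHR2 and -0.28 ± 0.80 for CRHBP, each with an edgeR adjusted p of 1.00. A difference of stress effects between the regions was thus not detectable with 3 libraries a group.

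Ratios within a library do not depend on its depth, although a ratio between 2 genes also carries their unequal transcript lengths. There were 2.87, 6.86 and 9.39 CRHBP counts for each CRH count in dorsal control and 3.32, 4.67 and 4.70 in dorsal stress libraries. The ventral libraries had 0.497, 2.38 and 6.38 in control and 2.72, 1.54 and 4.16 in stress. The ratio was lowest in ventral control 1, where CRH was high and CRHBP low, and the regions overlapped. CRHR1 counts for each CRHR2 count were 7.79, 3.64 and 5 in dorsal control, 6.6, 1.41 and 2.65 in dorsal stress, 3.99, 2.29 and 1.14 in ventral control and 2.16, 2.44 and 1.21 in ventral stress libraries. This ratio overlapped between the regions too.

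The 4 genes showed no common direction of variation within groups. Over the 12 libraries, the deviations from the group means had a Pearson correlation of 0.66 between CRHR2 and CRHBP, of -0.56 between CRH and CRHR2 and of -0.20 between CRH and CRHBP. With CRHR1 the correlations were 0.24 for CRH, 0.09 for CRHR2 and -0.11 for CRHBP. Correlations of log2 CPM over the 6 libraries of each region differed in sign for several pairs. In dorsal and ventral tissue, CRHR1 had 0.25 and -0.79 with CRHR2, 0.13 and -0.64 with CRHBP and -0.03 and 0.65 with CRH. CRH with CRHR2 gave 0.20 and -0.70, and CRHR2 with CRHBP 0.62 and 0.74. These are descriptions over libraries that share ewes across regions and differ in depth. The main axis of spread within groups moved with them: its correlation was 0.88 with CRHR2, 0.67 with CRHBP, -0.77 with CRH and -0.30 with CRHR1. Most gene lists moved along it too. The correlation of a list's mean with it was 0.94 for the regulators of the CRH gene and for the cyclic AMP arm, 0.92 for astrocyte markers, 0.90 for both the phospholipase C arm and the scaffolds, 0.79 for excitatory neuron markers and -0.86 for hippocampal subfield markers, and their part in the spread of the 4 genes was not tested.

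**Figure D3:**
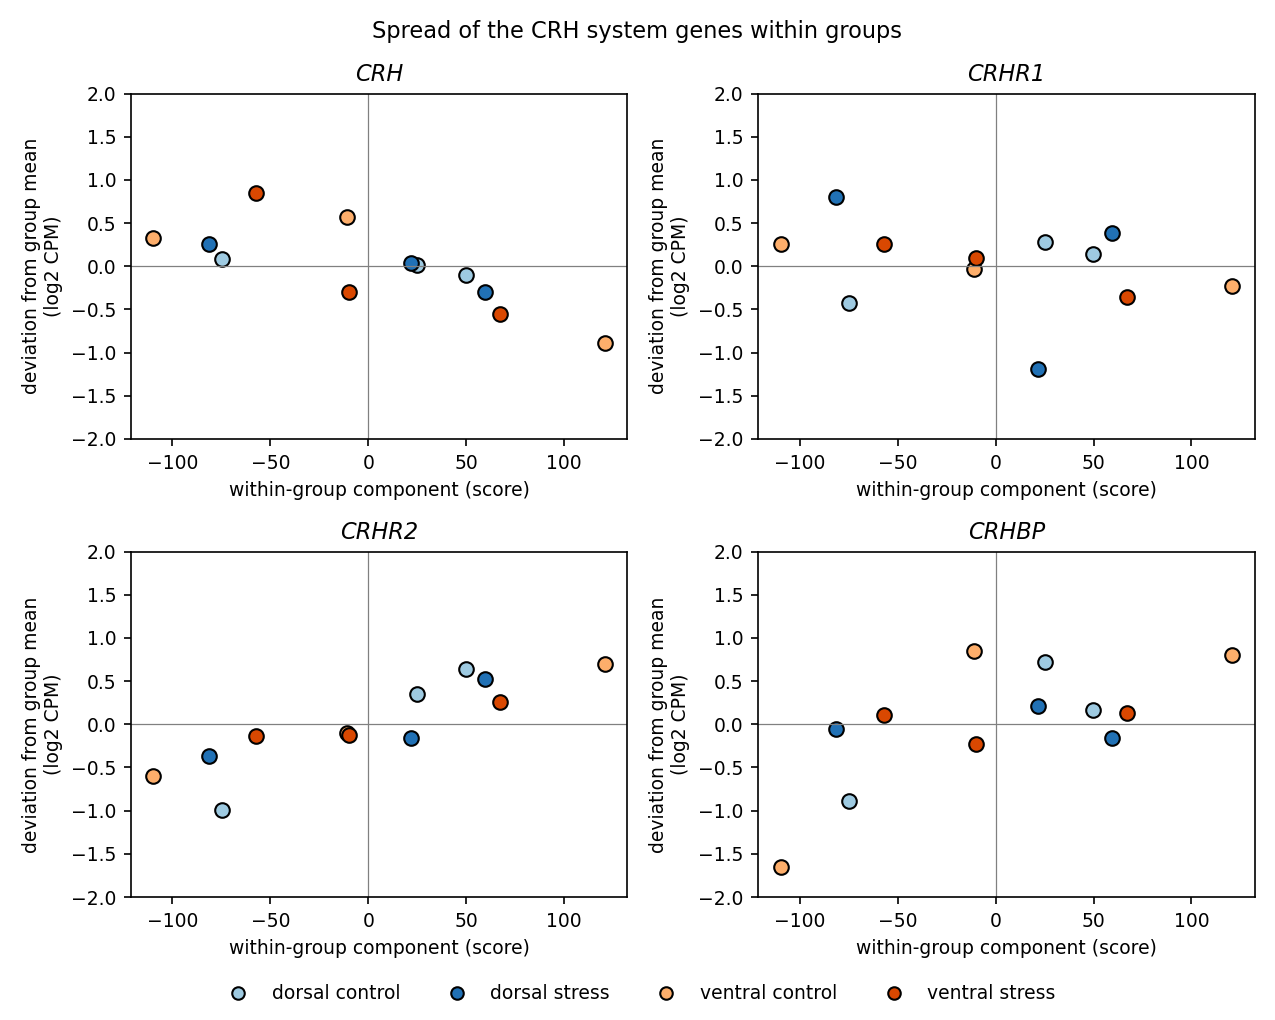
Deviation of each gene from its group mean (vertical axis, log2 CPM) against the score of each library on the main axis of spread within groups (horizontal axis), with 1 point for each of the 12 libraries, coloured by group. CRHR2 and CRHBP run upward (r = 0.88 and 0.67), CRH runs downward (r = -0.77), and ventral control 1, at the far left, has the lowest CRHBP deviation.

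Genes with the pattern most like each member were ranked by Pearson correlation of log2 CPM over the 12 libraries, among 12566 or 12567 other named genes at a mean log2 CPM of at least 1. For CRH these were STX1A, a protein of transmitter release (0.99), BAIAP3 (0.99), the growth cone protein GAP43 (0.99), the muscarinic receptor CHRM4 (0.98) and HAPLN4, a link protein of the extracellular matrix (0.98). Within groups BAIAP3 had the highest of their correlations with CRH, also 0.99. All 5 were lower in dorsal tissue, with log2 fold changes between -2.61 for HAPLN4 and -0.88 for STX1A and edgeR adjusted p between 0.000539 and 0.00310. They were picked for their likeness to CRH in these same libraries, where CRH separates the regions. Their lower dorsal level therefore follows from the choice and is not a separate result.

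For CRHR2 the nearest genes were ANK1 (0.98), RIMKLA (0.97), the vesicular glutamate transporter SLC17A6 (0.97), the receptor tyrosine kinase MET (0.96) and BRINP3 (0.96). For CRHBP they included GPR176 (0.96), the transcription factor ZIC1 (0.96), the synapse organiser CBLN4 (0.96) and PHYHIPL (0.96). CRHR1 had no neighbour so close, with SDCBP2 (0.87), IFIT3 (0.85), RPRM (0.85), BHMT (0.85) and VPS11 (0.84). These correlations mix the difference between regions with the spread within groups and are given without a test.

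The other ligands of the family were scarce. Urocortin, UCN, had 32, 0 and 2 counts in dorsal control, 3, 5 and 1 in dorsal stress, 32, 9 and 0 in ventral control and 7, 26 and 3 in ventral stress libraries. It was above 0.6 CPM in dorsal control 1 (0.630), ventral control 1 (0.769) and ventral stress 2 (1.03) only, and its region difference was -1.08 ± 1.06 (edgeR adjusted p = 0.915). UCN2 had at most 18 counts and was not tested. UCN3 was listed at 0 in all 12 libraries, which allows up to 0.0591 CPM in the deepest and 0.245 CPM in the shallowest for counting error alone. A 0 in this table need not mean that a transcript was absent, since SST, an abundant peptide of hippocampal interneurons, was listed at 0 in every library too.

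Enzymes that mature peptides gave 1 call in 3 tested genes. PCSK1, a convertase that cuts peptide precursors, was lower in dorsal tissue (-1.41 ± 0.33, edgeR adjusted p = 0.0366), at 22.5 ± 8.29 and 23.7 ± 4.03 CPM in the control and stress groups of the dorsal side, while the ventral groups held 63.4 ± 40.6 and 59.4 ± 21.3 CPM (SD, n = 3 each). PAM, which amidates peptides, gave -0.67 ± 0.24 (edgeR adjusted p = 0.211) and CPE, which trims them, -0.24 ± 0.15 (edgeR adjusted p = 0.659). The PCSK1 call was lost without any one of 9 of the 12 libraries, that is all but dorsal control 3 and ventral control 1 and 3, and in limma-voom.

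Downstream of the receptors, the share of genes called between regions was near that of all genes (4.51%). Of 23 genes of the cyclic AMP arm 1 was called, the adenylyl cyclase ADCY1, which was higher in dorsal tissue (0.73 ± 0.18, edgeR adjusted p = 0.0442). The median of the 23 was -0.14 against -0.02 for all genes. PRKACB, a catalytic subunit of protein kinase A (-0.61 ± 0.23), the CREB coactivator CRTC1 (0.59 ± 0.23) and the cyclase ADCY9 (0.48 ± 0.19) did not pass (edgeR adjusted p = 0.227, 0.262 and 0.261). The ADCY1 call was lost with library totals in place of TMM factors, with no filter and without any one of 10 of the 12 libraries (all but ventral control 3 and ventral stress 3).

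Of 9 genes of the phospholipase C arm and 9 of receptor desensitisation and scaffolding none was called (0 at edgeR adjusted p, and 0 and 1 at an unadjusted p under 0.05). Their medians were -0.07 and -0.04. The one below 0.05 was DLG1, a scaffold that binds CRHR1, at -0.82 ± 0.33 (edgeR adjusted p = 0.287). MAGI2, another such scaffold, gave -0.00 ± 0.68 and RAMP2, a partner of class B receptors, -0.08 ± 0.49.

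CRHR1 and CRHR2 belong to the class B1 peptide receptors, of which 13 others were looked up and 9 had enough counts for a test. Of the 9, 3 were lower in dorsal tissue and 1 was higher, and their median was -0.75. Lower were VIPR1, a receptor for PACAP and VIP (-3.73 ± 0.29), the parathyroid hormone family receptor PTH2R (-2.39 ± 0.55) and the secretin receptor SCTR (-2.03 ± 0.39). GLP1R, the receptor for glucagon-like peptide 1, was higher in dorsal tissue by 1.30 ± 0.20 (edgeR adjusted p = 0.00533), at 20.8 ± 4.93 and 23.5 ± 4.69 CPM in the dorsal control and stress groups against 7.60 ± 1.46 and 10.5 ± 3.14 CPM in the ventral ones (SD, n = 3 each). The PTH2R call was lost without any one of 11 of the 12 libraries (all but ventral control 1), while the VIPR1, SCTR and GLP1R calls held without each library in turn. With the mean of choroid plexus markers as a covariate the SCTR call was lost (-1.75 ± 0.76, edgeR adjusted p = 0.0933).

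Of 5 tested regulators of the CRH gene 1 was higher and 1 lower in dorsal tissue, the mineralocorticoid receptor NR3C2 (0.91 ± 0.17, edgeR adjusted p = 0.0131) and the activity-induced factor NR4A1 (-1.16 ± 0.28, edgeR adjusted p = 0.0459). With choroid plexus markers as a covariate the NR3C2 call was lost (0.44 ± 0.23, edgeR adjusted p = 0.144). The NR4A1 call was lost without any one of 10 of the 12 libraries (all but ventral control 3 and ventral stress 3). The glucocorticoid receptor NR3C1 gave -0.17 ± 0.30 and the repressor REST -0.36 ± 0.52, neither of them called. OTP and SIM1, which specify the CRH neurons of the hypothalamus, had at most 11 and 4 counts in any library. For stress over both regions no gene of these lists was called in edgeR.

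**Figure D4:**
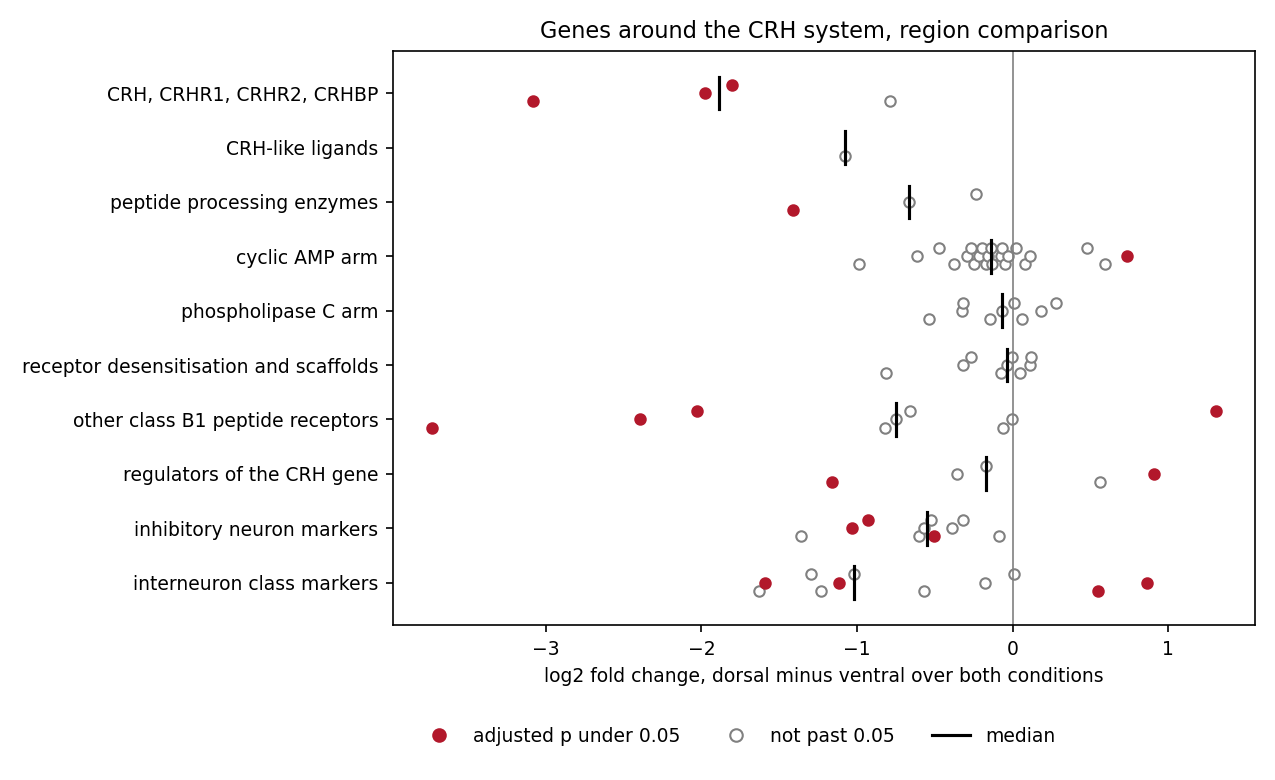
Log2 fold change (horizontal axis, dorsal minus ventral over both conditions) of every tested gene of the CRH system, of the lists around it and of inhibitory neuron and interneuron class markers, with a bar at each median and called genes filled. The 4 CRH system genes range from -3.08 to -0.78, most genes of the cyclic AMP arm, the phospholipase C arm and the scaffolds lie near 0, and the class B1 receptors spread from -3.73 to 1.30.

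Markers of inhibitory neurons moved in the same direction between regions, by less than CRH. Of 10 measured markers 3 were lower in dorsal tissue and 0 higher, with a median of -0.55: DLX6 (-1.03 ± 0.25), LHX6 (-0.93 ± 0.13) and the GABA-making enzyme GAD1 (-0.51 ± 0.10). The DLX6 call was lost without any one of 11 of the 12 libraries (all but ventral control 2), and that of GAD1 without dorsal control 2 or 3 or dorsal stress 2. Their summed level was 397 to 510 CPM in dorsal and 495 to 727 CPM in ventral libraries, and none of the 10 was at 0. Of 11 tested interneuron class markers 2 were lower, NOS1 (-1.59 ± 0.21) and VIP (-1.12 ± 0.27), and 2 were higher, LAMP5 (0.86 ± 0.13) and NPNT (0.55 ± 0.12). Only 3 of the 11 had positive values, their median was -1.02, and 8 were at an unadjusted edgeR p under 0.05. The VIP and NPNT calls were lost without any one of 10 and 7 of the 12 libraries. VIP held its call without ventral control 1 or 3, and NPNT without dorsal control 3, dorsal stress 1, ventral control 1 or 3 or ventral stress 3.

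Counts of the 4 genes can also be given for each count of GAD1, which itself differed between regions. For every 1000 GAD1 counts there were 4.99 to 10.9 CRH counts in the dorsal libraries and 17.5 to 74.5 in the ventral ones, which did not overlap. For CRHBP the same ratio was 16.1 to 51.2 in dorsal and 22.8 to 134 in ventral libraries, and for CRHR2 2.07 to 10.8 and 9.93 to 22.0, both overlapping. For CRHR1 it was 9.69 to 43.3 in dorsal and 19.3 to 39.6 in ventral libraries, with dorsal stress 1 above every ventral library. With the mean of the inhibitory neuron markers as a covariate 0 genes were called in edgeR. CRH then gave -2.89 ± 0.93 (adjusted p = 0.408, unadjusted p = 0.0113), CRHR2 gave -0.21 ± 0.91 (adjusted p = 0.898) and CRHBP turned to 0.55 ± 0.92 (adjusted p = 0.719). CRHR1 gave -1.33 ± 0.92 with the same covariate (edgeR adjusted p = 0.437). That mean was itself lower in every dorsal than in every ventral library, and the part of inhibitory neuron numbers in these differences was not tested.

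Markers of other tissues and cell types differed between regions as well. The choroid plexus list, with 4 of 12 markers higher and 1 lower in dorsal tissue, summed to 520 to 3005 CPM in dorsal and 181 to 555 CPM in ventral libraries, with none at 0. With its mean as a covariate CRH gave -2.13 ± 0.54, CRHR2 -2.77 ± 0.52 and CRHBP -2.56 ± 0.69 over both conditions. Each was called, in a fit that called 4821 of the 17806 genes against 803 without the covariate. Within groups the choroid plexus mean had a correlation of 0.78 with the main axis of spread, so the fit also takes out part of that spread. CRHR1 gave -0.53 ± 0.53 in that fit and was not called. Meningeal fibroblast markers, 6 of 8 lower in dorsal tissue, summed to 153 to 257 CPM in dorsal and 352 to 663 CPM in ventral libraries, and 4 of 7 amygdala markers were lower, with sums of 185 to 275 and 248 to 388 CPM. Excitatory neuron markers, 3 of 9 higher and 1 lower in dorsal tissue, summed to 3909 to 4714 CPM in dorsal and 2527 to 3385 CPM in ventral libraries, with no overlap. Of 8 striatum markers 3 were lower and 1 higher, with sums of 96.7 to 163 and 114 to 169 CPM. Oligodendrocyte markers had 1 of 7 called, as higher. All 7 had positive values (median 0.75), 6 of them at an unadjusted edgeR p under 0.05. Hippocampal subfield markers had 1 of 10 called higher and 1 lower, with 8 at an unadjusted p under 0.05, against 13.7% of all genes. Mural, astrocyte and microglia markers had none called in edgeR (2 of 10, 0 of 7 and 0 of 7 at an unadjusted p under 0.05). Whether these tissues and cells contributed to the levels of the 4 genes was not tested. Hypothalamic markers summed to 0.855 to 4.33 CPM in dorsal and 1.19 to 7.38 CPM in ventral libraries. Pituitary markers ran from 5.62 to 153 CPM and from 4.95 to 101 CPM, with 0 of 7 called between regions.

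**Figure D5:**
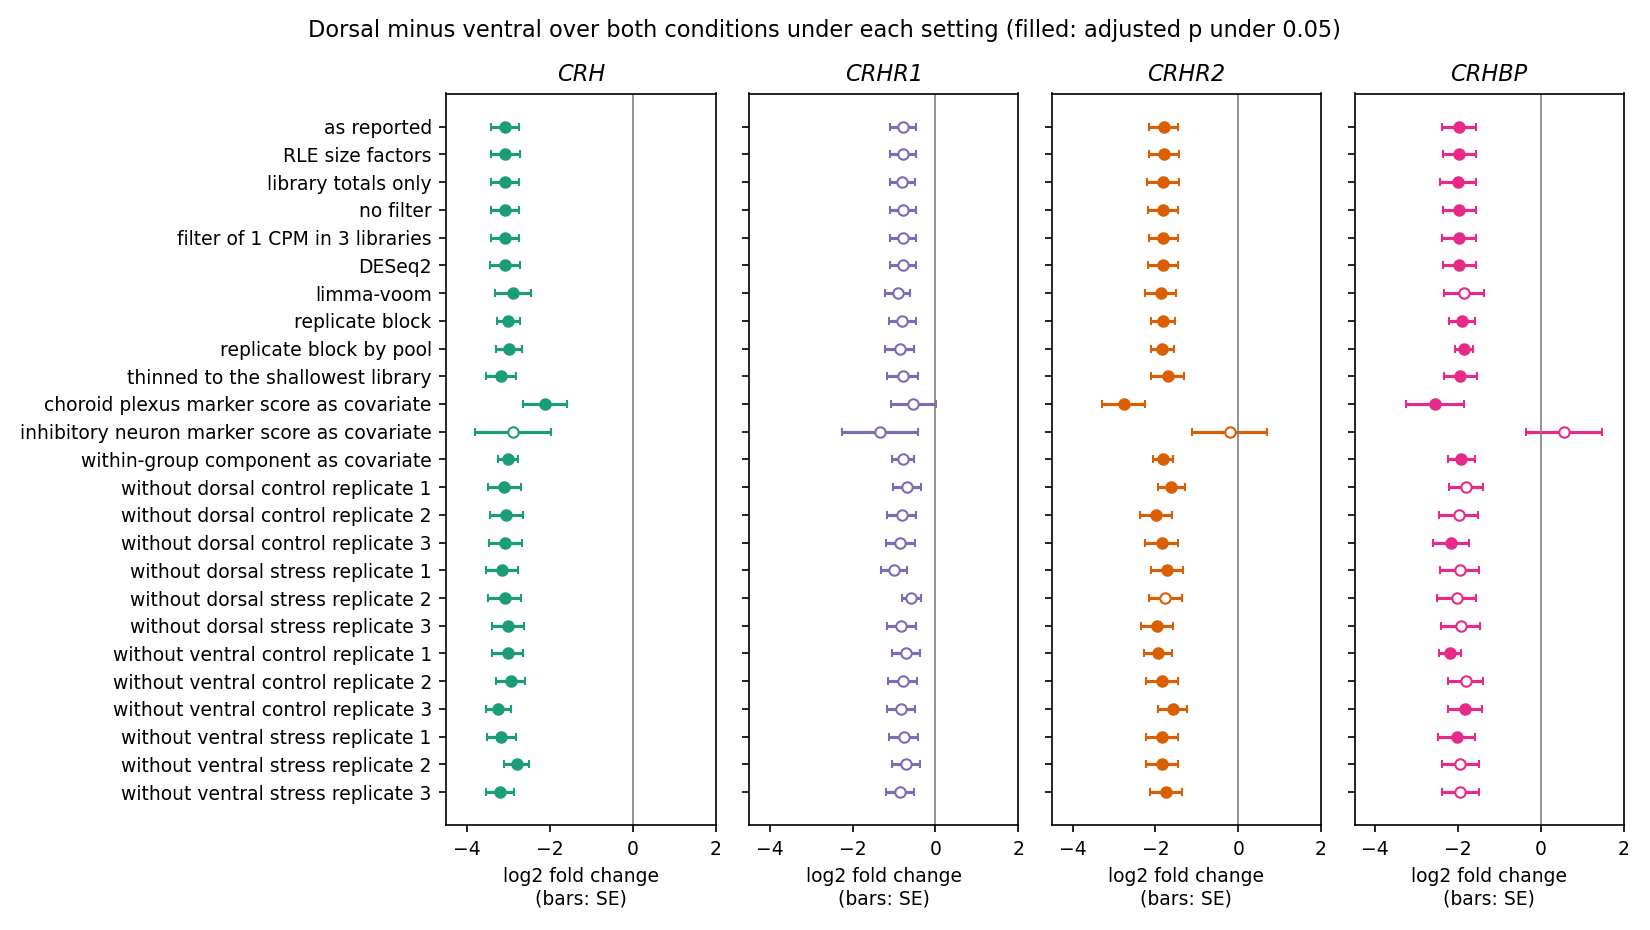
Log2 fold change with SE (horizontal axis) of the 4 genes between regions over both conditions, as reported and under each of 24 alternatives (rows), filled where the adjusted p is under 0.05. CRH is called in every row but the one with inhibitory neuron markers as a covariate, CRHR1 in none, and CRHBP loses its call in 10 rows.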

How the data were processed

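RNA sequencing of 12 pooled libraries was deposited by the authors as 1 table of raw gene counts, whole numbers that were not normalized. Libraries were made with a stranded mRNA kit, per the labels' protocols. The submitters' processing notes name featureCounts 2.0.0, TopHat2 2.1.1 with Bowtie2 2.3.5.1, SAMtools 1.9, FastQC and bcl2fastq 2.20, in no stated order. For the genome build, the annotation and the strand setting nothing was found (not given in the sources used here), so no positions are printed and reads of an antisense partner cannot be told apart. In the RefSeq gene table of assembly ARS-UI_Ramb_v3.0, used only for names and neighbours, no other gene overlaps the 4 genes. No sequences of the 4 genes are used here.

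The analysis of the counts used edgeR 4.0.16 (R 4.3.3): filterByExpr by group (17806 genes), TMM and a robust quasi-likelihood fit of 4 group means. DESeq2 1.42.0, limma 3.58.1 (voom) and the other alternatives stand in the closing section. The script was tested on simulated data. An SE was obtained as the size of the log2 fold change over the square root of its F statistic, and intervals use the t distribution with edgeR's degrees of freedom. The log scale adds 0.5 counts. Poisson intervals and the limit for a count of 0 (3 counts) cover counting error only.

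The members and lists were chosen with earlier results of these data known. Named genes are the 4 members, up to 4 genes of each list by smallest p between regions and up to 2 for stress, called list genes, and the 5 genes most like each member. Not every gene that this rule selects is described, and 1 of the genes most like CRHBP is not reported here. SST, OTP and SIM1 were named after their values were seen. Of 194 list genes 191 were in the table. No pair of libraries of one group held the same counts (chi-square of at least 20.2 per degree of freedom).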

Additional observations from a re-analysis of the deposited data

How the results depend on the processing

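Each of the 28 values of the 4 genes, the gene counts and the 15 called list genes were recomputed under RLE factors, library totals alone, every gene with counts kept, at least 1 CPM in 3 libraries required, DESeq2, limma-voom, a replicate block, thinning to the shallowest library, the mean of choroid plexus or inhibitory neuron markers as a covariate, and without each library in turn. The spread component was added as a covariate after the data were seen. It is built from the residuals of the same libraries, so it takes out spread by construction, and the calls gained with it support nothing. Of 660 recomputed values of the 4 genes 565 kept direction and side of the threshold, 32 lost a call, 12 gained one and 51 changed sign, and no cause of a change was tested.

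With inhibitory neuron markers as a covariate the region calls of CRH ended (-2.89 over both conditions, -3.10 in control, -2.69 in stress), as did that of CRHR2 (-0.21), and signs turned for CRHBP (0.55, 0.42 and 0.68), CRHR2 in stress (0.35) and VIP (0.056). Within condition CRH lost its call with choroid markers (-1.98 in control, -2.27 in stress) and in stress with limma-voom (-2.71). CRHBP lost its call over both conditions with limma-voom (-1.85). PCSK1, PTH2R, NR4A1, DLX6 and VIP lost theirs with limma-voom too. PTH2R and NR4A1 also lost theirs when thinned, ADCY1, DLX6 and NPNT with no filter, and ADCY1 and VIP with library totals. With choroid markers the calls of ADCY1, SCTR, PTH2R, NR3C2, NR4A1, DLX6 and NPNT ended, and with inhibitory markers those of all 15 list genes. The mean of inhibitory markers was lower in every dorsal than in every ventral library and holds GAD1, DLX6 and LHX6 themselves. The fit with it called 0 genes, so it cannot decide whether the region call of any gene holds. The mean of choroid markers had a correlation of 0.78 within groups with the spread component. The part of choroid tissue in the calls that ended or were gained with that mean was not tested. Calls were gained in control for CRHR2 with DESeq2 (-2.16), choroid markers (-3.41) and the component (-2.14), and for CRHBP with DESeq2 (-1.83) and the component (-1.74). In stress they were gained for CRHR2 with the component (-1.48) and for CRHBP with DESeq2 (-2.11) and the component (-2.10).

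Without each library in turn, values over both conditions ran from -3.25 to -2.81 for CRH, -1.98 to -1.59 for CRHR2 and -2.21 to -1.81 for CRHBP. In control they ran from -3.59 to -2.98, -2.51 to -1.71 and -2.29 to -1.5, and in stress from -3.16 to -2.35, -1.75 to -1.28 and -2.23 to -2.04.

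No stress value was called under any alternative, and those near 0 changed sign. In dorsal tissue these were CRHR1 with limma-voom (-0.034) and CRHBP with limma-voom (0.19), choroid markers (0.36) and the component (0.10). In ventral tissue they were CRHR1 thinned (0.061) and with inhibitory markers (0.16), CRHR2 with totals (0.0094), no filter (0.0018), limma-voom (0.093), thinning (0.35) and the component (0.079), and CRHBP with inhibitory markers (-0.83). Over both regions they were CRHR1 with RLE (0.0036), totals (0.0041), DESeq2 (0.0033), thinning (0.092) and inhibitory markers (0.20), CRHR2 (-0.27) and CRHBP (-0.69) with inhibitory markers. The difference of effects turned for CRH when thinned (-0.00068) and with choroid markers (-0.30), and for CRHBP with choroid (0.16) and inhibitory markers (0.26).

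Without each library in turn the dorsal stress effect ran from 0.43 to 0.72 for CRH, -0.29 to 0.55 for CRHR1, 0.31 to 1.04 for CRHR2 and -0.36 to 0.39 for CRHBP. The ventral one ran from -0.33 to 0.51, -0.29 to 0.0032, -0.27 to 0.43 and -0.20 to 0.58. Over both regions it ran from 0.12 to 0.54, -0.22 to 0.20, 0.15 to 0.55 and -0.11 to 0.33, and the difference between regions from 0.07 to 0.91, -0.13 to 0.70, 0.25 to 1.05 and -0.62 to 0.18.

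Genes called between regions over both conditions numbered 803, against 1558 with DESeq2, 1375 with the block, 4821 with choroid and 0 with inhibitory markers, 3609 with the component and 420 to 1091 without a library. In control there were 178, against 728, 440, 2201, 0, 1894 and 2 to 319. In stress there were 79, against 580, 314, 187, 0, 1546 and 1 to 159, and 29 with limma-voom. For stress over both regions the component gave 237.

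The labels do not say that pools of one number hold the same ewes. Across regions, 4 of 6 same-numbered pairs of one condition had deviations correlated over 0.1 (-0.21 to 0.73). Same-numbered libraries of opposite conditions share no ewes. Their correlations ran from -0.45 (dorsal control 2 and ventral stress 2) to 0.74 (ventral control 3 and ventral stress 3). These values therefore cannot tell whether ewes were shared, and the numbers were not taken as pairing. With the replicate block CRHR2 in control was -2.13 and called, though not with a block for each pool (-2.19, edgeR adjusted p = 0.0652), and the stress effects of CRHBP in dorsal (0.15) and CRHR2 in ventral tissue (0.080) changed sign. With a block for each pool CRH in stress was -2.81 and not called. The region calls of PTH2R and NR4A1 over both conditions were lost with that block as well.

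With 10 to 39 CRH and CRHR2 counts in a dorsal library, counting error limits what can be said of stress there.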
